A study of Mus musculus with 6 samples.

Results

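The ubiquitin-specific proteases are the genes of the mouse genome whose symbol is Usp and a number, with or without a letter or an l suffix. All 55 protein-coding genes of that form were found among the 41388 genes of the count files, and their mRNA levels were compared between tumor initiating cells (TICs) and the remaining tumor cells. The cells came from mammary tumors of 12-week-old female mice of strain FVB/N-TgN(MMTVPyVT)634Mul/J, in which the polyoma virus middle T oncogene is driven by the mouse mammary tumor virus promoter, and every sample of both groups carries this transgene. TICs were sorted as CD24+CD90+CD45- cells, and the other group held the CD45- cells outside the double-positive gate (non-CD24+CD90+ tumor cells). The series design text describes that second group more narrowly, as lacking both CD24 and CD90. RNA-seq was performed on 3 samples per group, each pooled from 4 sorts and started from 120 ng of total RNA. Whether the samples of both groups came from the same mice is not given in the sources used here, and no label links a TIC sample to a non-CD24+CD90+ sample.

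Ubiquitin is a small protein that is attached to other proteins as a single unit or as a chain, and it marks them for degradation by the proteasome or alters their location and partners. Ubiquitin-specific proteases are the most numerous family of deubiquitinases. They are cysteine proteases that cut the bond between ubiquitin and its target, and they act on histones, DNA repair factors, endosomal receptors, mitochondrial proteins and signaling components. In tumor cells several of them are known to set the stability of p53, of its ligase Mdm2 and of growth factor receptors.

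Total counts were 6781239 to 8450038 in the non-CD24+CD90+ samples and 8114933 to 9100552 in the TIC samples. Levels are given as CPM, counts scaled to a common library total after normalization between samples. Scaled by the total counts alone, a value of 3 counts equaled 0.330 to 0.442 CPM, which is the limit that a count of 0 allows, for counting error only. TIC replicate 3 stood apart on the first principal component (165.3, against -56.9 to -5.51 for the other samples). Marker genes of the surrounding tissue were read as summed levels and as genes passing the test described below. Over all genes 1.36% passed as higher in TICs and 0.189% as lower. The summed level of 7 fibroblast markers was 2115 to 2528 CPM in non-CD24+CD90+ cells and 4973 to 8206 CPM in TICs, with 4 of the 7 passing the test. The sums for 7 pericyte and smooth muscle markers were 525 to 658 and 937 to 1364 CPM, and 1 gene, Rgs5, passed. It had 242 CPM in each non-CD24+CD90+ sample and 526 to 797 CPM in TICs. The smooth muscle genes Acta2 and Myh11 had log2 fold changes of -0.01 and 0.07 (genes named after their values were seen). For 7 endothelial markers the sums were 154 to 160 and 192 to 708 CPM, the highest in TIC replicate 3, and 0 of the 7 passed. For 7 leukocyte markers they were 16.7 to 35.5 and 31.9 to 89.8 CPM, with overlapping groups and Cd3e at 0 in every sample. For 5 basal markers they were 449 to 997 and 364 to 591 CPM, with overlapping groups, and 0 of the 5 passed. Of the 3 leukocyte markers tested 1 was called, Lyz2 (named after its values were seen), at 4.27 to 11.8 CPM in non-CD24+CD90+ cells and 27.9 to 75.0 CPM in TICs, and the other 2 had negative fold changes. The sum over 7 luminal markers was 5754 to 6059 CPM in non-CD24+CD90+ cells and 3649 to 4370 CPM in TICs, and 0 of the 7 passed. Of the genes of the sorting markers, Cd24a was at 400 to 600 CPM in non-CD24+CD90+ cells and 314 to 438 CPM in TICs, and Thy1, which encodes CD90, at 21.5 to 75.6 and 70.1 to 206 CPM. Both overlapped between the groups, and both were present in every non-CD24+CD90+ sample. Ptprc, which encodes CD45, had counts in 1 non-CD24+CD90+ sample only (4.80 CPM). In bulk RNA, fewer cells of a type and less RNA per cell cannot be told apart, and the part of these markers in the results below was not tested.

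Of the 55 members, 43 had more than 1 CPM in at least 3 samples and were tested. Exactly 1 of them, Usp16, was called higher in TICs at an adjusted p below 0.1 (exactTest of edgeR, Benjamini-Hochberg adjustment over all 12192 genes tested), which is 2.33% of the tested members beside 1.55% of all genes in either direction and 1.36% in that direction. By exactTest 0 members were called lower, beside 0.189% of all genes. The quasi-likelihood test of edgeR also called 0 lower, and DESeq2 called 1, Usp38. At an unadjusted p below 0.05 there were 6 members, 2 higher and 4 lower in TICs, which is 14.0% beside 7.85% of all genes. The summed level of the family was 2426 ± 126 CPM (SD, n = 3) in non-CD24+CD90+ cells and 2403 ± 181 CPM in TICs, with overlapping groups. The difference between these sums was smaller than the SD of either group. In exactTest 36 of the 43 tested members had an adjusted p above 0.9. The share over all genes was not computed for that bound, so that this count says nothing particular about the family.

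**Figure D1:**
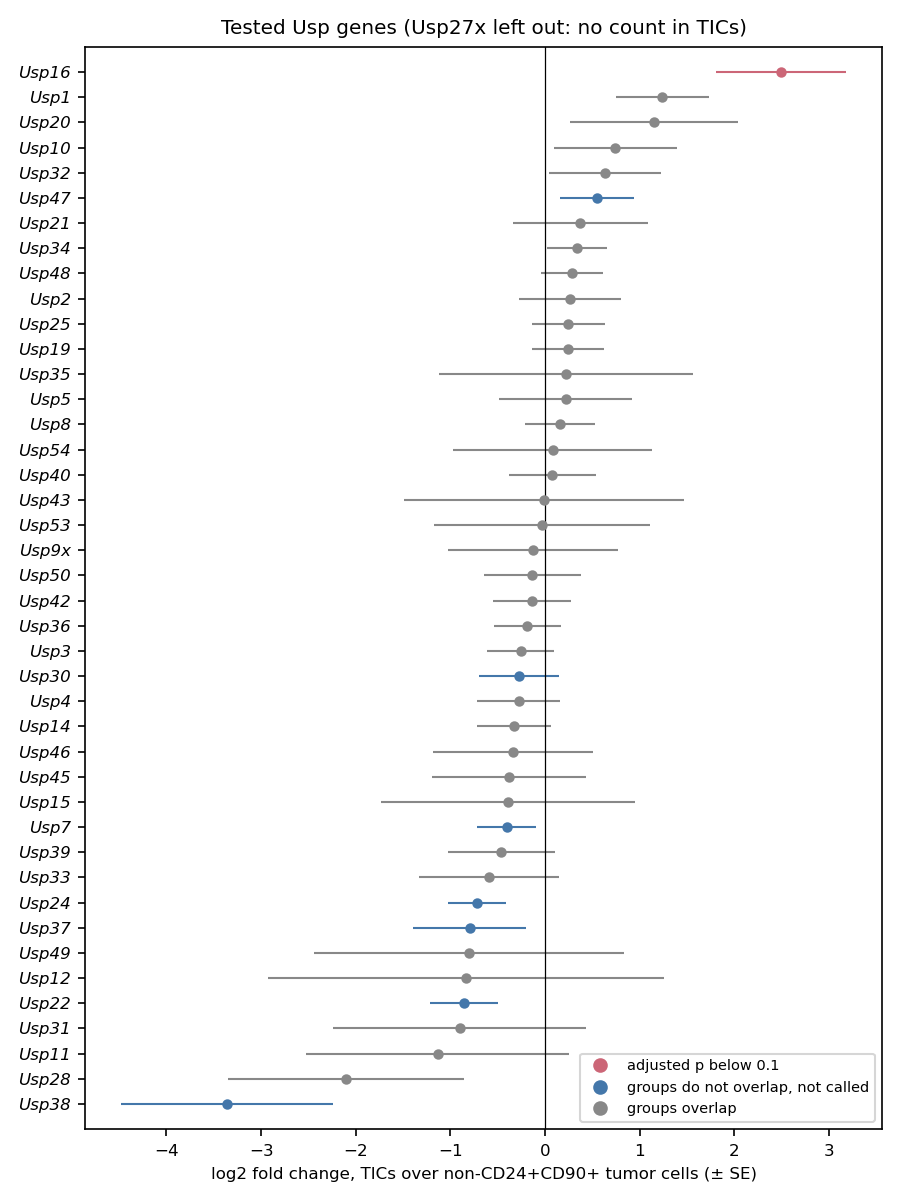
Log2 fold change (x axis) of each tested Usp gene in TICs over non-CD24+CD90+ tumor cells, with bars of 1 SE from the negative binomial fit, 3 samples per group, and Usp27x left out because it had no count in TICs. Usp16 at 2.49 (red) was the only member called by exactTest, and the blue genes had groups that did not overlap without being called. Within 0.5 of 0 lay 26 of the 43 tested members, and the share over all genes was not computed.

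Usp16 removes ubiquitin from histone H2A, a mark set on chromatin by Polycomb repressive complexes. It lies on chromosome 16 at 87454703-87483517, plus strand (GRCm38, as are all positions given here). Its exons share 2.03% of their bases with Cct8 on the other strand, and the strand setting of the counting is not given. The raw counts were 152, 60 and 22 in the non-CD24+CD90+ samples and 334, 477 and 669 in the TIC samples. As normalized values these were 22.1, 6.78 and 3.13 CPM and 36.6, 55.4 and 87.9 CPM. Every TIC sample was above every non-CD24+CD90+ sample, the closest pair being 22.1 and 36.6 CPM, and the group means were 10.7 ± 10.1 and 60.0 ± 26.0 CPM (SD, n = 3). Usp16 rose in TICs by 2.49 on the log2 scale (SE 0.69), a 5.62-fold difference, with an adjusted p of 0.0648 in exactTest.

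The call for Usp16 depended on the test and on single samples. Its adjusted p was 0.248 by the quasi-likelihood test of edgeR, 0.116 without a filter on low counts and 0.0262 by DESeq2. In exactTest the adjusted p was 0.169 without TIC replicate 2, 0.315 without TIC replicate 3, 0.394 without non-CD24+CD90+ replicate 2 and 0.290 without non-CD24+CD90+ replicate 3. It was 0.0284 without TIC replicate 1 and 0.00355 without non-CD24+CD90+ replicate 1. The log2 fold change itself stayed between 2.06 and 3.60 over the 12 alternatives. The summed fibroblast markers, given above, were also higher in every TIC sample, and their part in the Usp16 result was not tested.

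**Figure D2:**
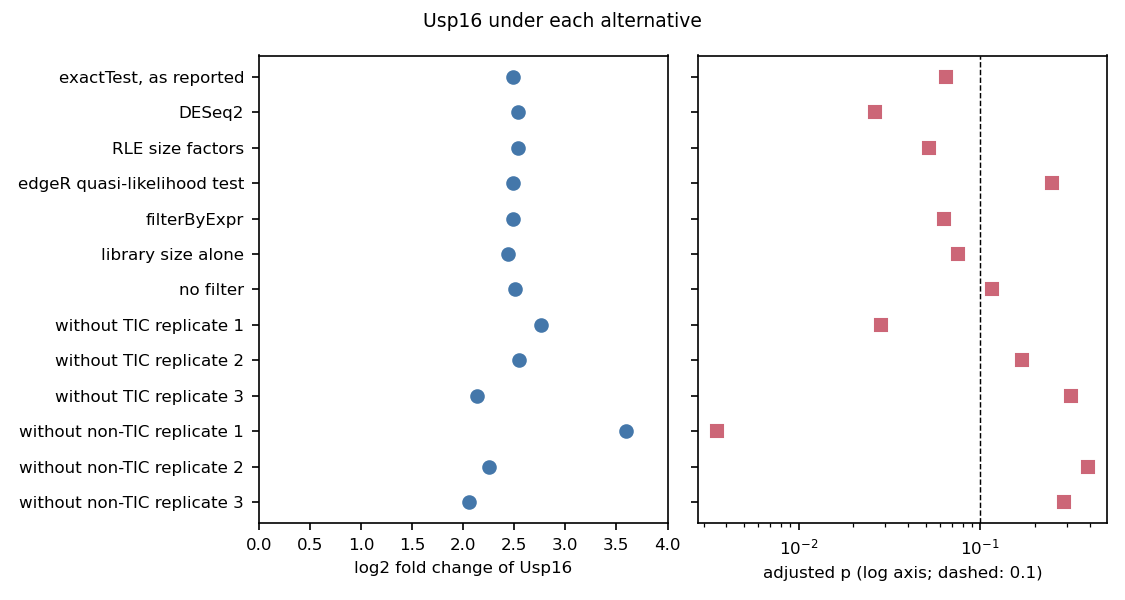
Log2 fold change of Usp16 (left, TICs over non-CD24+CD90+ tumor cells) and its adjusted p (right, log axis, dashed line at the threshold of 0.1) as reported and under each of the 12 alternatives. The fold change was above 2 in every setting, whereas the adjusted p lay between 0.00355 and 0.394 and was below the threshold in 6 of the 12.

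The closest relative of Usp16 among the proteases is Usp45, which acts in the repair of DNA by deubiquitinating the nuclease subunit Ercc1. The stretch of coding sequence around the catalytic cysteine shows the relation and is printed for both, as 30 bases 5′ to 3′ of the GENCODE M21 coding sequence with the cysteine codon in capitals.
Usp16, chr16:87469827-87469856, plus strand: ttggggaatactTGTttcttcaatgcagtt
Usp45, chr4:21796893-21796922, plus strand: ttagggaatactTGCttttttaatgcagtc
The windows were identical at 25 of 30 bases, and the coding sequences had 825 and 813 codons. Usp45 did not share the pattern of Usp16. Its levels were 20.6, 18.5 and 17.8 CPM in non-CD24+CD90+ cells and 10.4, 20.3 and 13.0 CPM in TICs, with overlapping groups and a log2 fold change of -0.38 (SE 0.81, 95% interval -1.98 to 1.21, adjusted p = 1 in exactTest). The log2 ratio of Usp16 to Usp45 was 0.10, -1.39 and -2.33 in non-CD24+CD90+ samples and 1.77, 1.42 and 2.71 in TIC samples, computed after adding 0.5 CPM to both genes. These ratios did not overlap between the groups. Usp16 was taken because it was called, and its own groups did not overlap, so that the ratio adds no separate evidence. Of 15 pairs of relatives with both members tested, 5 had ratios without overlap.

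The 250 bases before the RefSeq start of Usp16 are shown because it was the member called, beside those of Usp27x and Usp38, the members with the most negative fold changes. The sequences are from RefSeq on GRCm38.p6, 5′ to 3′ on the strand of the gene. The RefSeq starts differ from the GENCODE gene ends given in the text, so that all 250 bases of the Usp16 window and 22 of the Usp38 window lie inside the GENCODE gene, and 0 of the Usp27x window. Capitals mark matches to an E-box (CACGTG), to an ETS-type site (CCGGAAG, or CTTCCGG on the other strand) or to a GC box (GGGCGG, or CCGCCC on the other strand), and no match of one overlapped a match of another.
Usp16, chr16:87454735-87454984, plus strand: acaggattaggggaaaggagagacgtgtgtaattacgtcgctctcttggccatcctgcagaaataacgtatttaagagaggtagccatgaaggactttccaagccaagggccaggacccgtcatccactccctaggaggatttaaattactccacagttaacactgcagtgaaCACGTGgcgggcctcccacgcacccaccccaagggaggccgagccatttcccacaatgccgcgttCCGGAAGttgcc
Usp27x, chrX:7375831-7376080, minus strand: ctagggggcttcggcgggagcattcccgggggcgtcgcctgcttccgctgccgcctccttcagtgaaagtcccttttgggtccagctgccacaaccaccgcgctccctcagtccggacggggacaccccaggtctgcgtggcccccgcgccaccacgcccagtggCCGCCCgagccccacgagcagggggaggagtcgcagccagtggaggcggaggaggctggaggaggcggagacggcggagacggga
Usp38, chr8:81014907-81015156, minus strand: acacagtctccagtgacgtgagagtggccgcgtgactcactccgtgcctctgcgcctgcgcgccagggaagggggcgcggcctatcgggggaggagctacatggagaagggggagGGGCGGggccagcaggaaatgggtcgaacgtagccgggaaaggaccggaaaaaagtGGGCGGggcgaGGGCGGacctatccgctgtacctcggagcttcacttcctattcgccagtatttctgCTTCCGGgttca
The Usp16 window held the E-box and the ETS-type letters and no GC box, the Usp27x window held 1 GC box, and the Usp38 window held 3 GC boxes and the ETS-type letters. Among the 33 tested members with an entry, 9.09% held the E-box, 21.2% the ETS-type site and 69.7% the GC box, beside 6.05%, 7.05% and 32.9% of all 27025 promoters. A CCAAT box (CCAAT, either strand) was found in 15.2% of the tested members and in 34.5% of all promoters, and a TATA box (TATAAA, either strand) in 6.06% and 13.0%. These are counts of letters in a fixed window and were not tested. The 33 members had passed the filter on counts, whereas all promoters include those of genes silent in these cells. A comparison with the promoters of the other tested genes was not made, so that these shares cannot be read as a trait of the family.

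Among the tested members, 9 had groups that did not overlap, 2 higher and 7 lower in TICs. These are 4.65% and 16.3% of the 43, beside 7.69% and 7.55% of all genes, and in both directions together 20.9% beside 15.2%. With 3 samples against 3, an exact permutation test cannot give a p below 0.1. The 2 higher members were Usp16 and Usp47. The 7 lower members were Usp27x, Usp38, Usp22, Usp24, Usp7, Usp37 and Usp30, and none of the 7 passed exactTest.

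**Figure D3:**
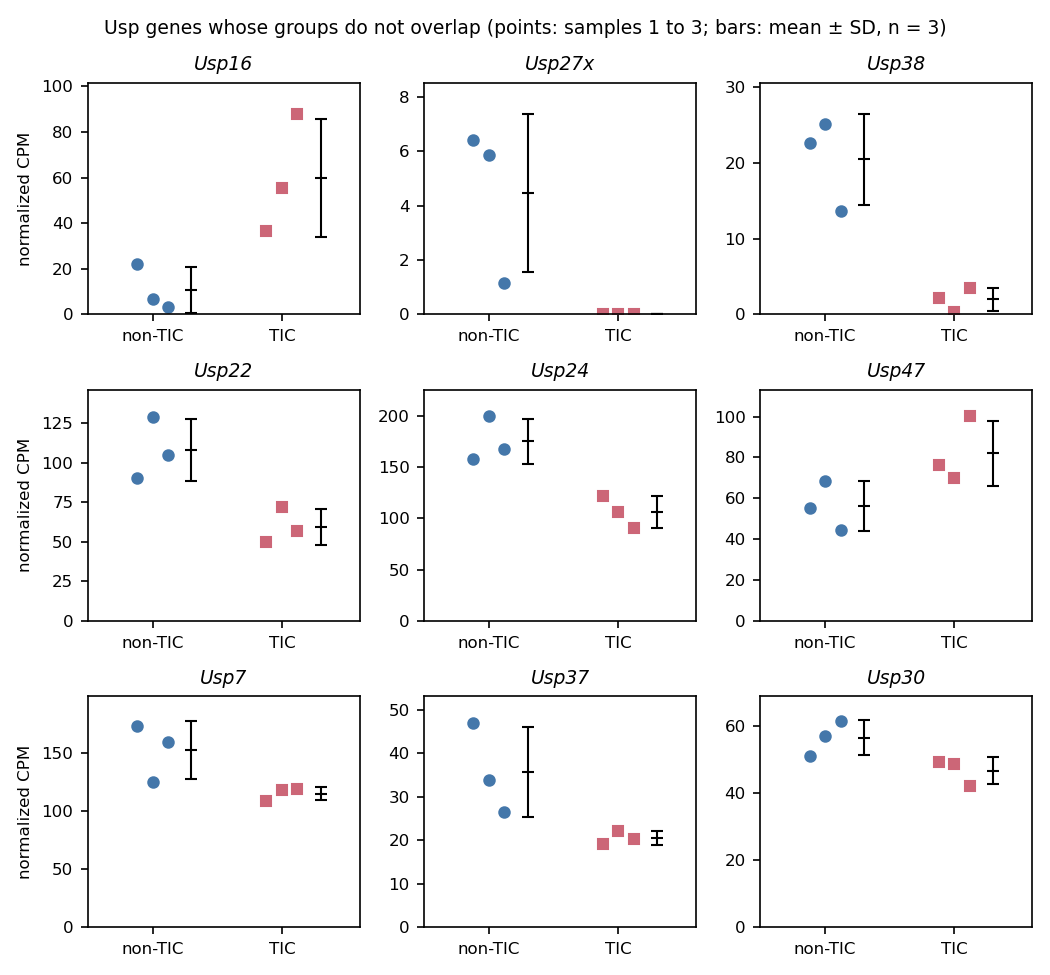
Normalized CPM (y axis, linear, starting at 0) of the 9 tested Usp genes whose groups did not overlap, with 1 point per sample and bars of mean ± SD (n = 3 per group). Usp16 and Usp47 were higher in TICs and the other 7 were lower, with Usp27x at 0 in all 3 TIC samples.

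The histone and chromatin members are Usp3, Usp7, Usp16, Usp21, Usp22, Usp27x and Usp49, with Usp44 and Usp51 untested. Usp49 shares 52.3% of its exon bases with other genes, mainly Gm20517 on the same strand. Of the 7 tested members 1 was called, 2 had a positive and 5 a negative log2 fold change, and the median was -0.41. Over all genes 1.55% were called and 49.7% had a positive fold change. The counts of the role groups below stand beside the same shares. Usp22 is the deubiquitinase of the SAGA coactivator complex, where it removes ubiquitin from histone H2B, and Usp27x and Usp51 are its relatives that bind the same cofactors. The sequences around the catalytic cysteine are shown for these 3 genes, with the cysteine codon in capitals.
Usp22, chr11:61162947-61162976, minus strand: ctggggaacacgTGTttcatgaactgcatc
Usp27x, chrX:7374586-7374615, minus strand: cttggcaacacgTGTtttatgaactgcatt
Usp51, chrX:153008384-153008413, plus strand: cttggtaatactTGCtttatgaattgtatt
Usp22 and Usp27x shared 26 of 30 bases, Usp27x and Usp51 24, and Usp22 and Usp51 21. The coding sequences were 525, 438 and 661 codons long.

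Usp27x, on chromosome X at 7371276-7375830 (minus strand), had 44, 52 and 8 counts in the non-CD24+CD90+ samples and 0 in each TIC sample. In normalized units these were 6.40, 5.88 and 1.14 CPM against 0. The third non-CD24+CD90+ sample was closer to the TIC samples than to its own group. The pooled non-CD24+CD90+ level was 38.6-fold the limit of 3 counts over the TIC group. This bound covers counting error only and not the spread between samples, so that it is no minimum for the difference. In exactTest the unadjusted p was 0.00563 and the adjusted p 0.218, which misses the threshold.

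Usp22 (chromosome 11, 61151785-61175055, minus strand) was a more abundant member of the same set. Its levels were 90.1, 129 and 105 CPM in non-CD24+CD90+ cells and 49.6, 72.2 and 56.6 CPM in TICs. The highest TIC sample lay below the lowest non-CD24+CD90+ sample. The log2 fold change was -0.86 (SE 0.36, 95% interval -1.57 to -0.15) with an adjusted p of 0.404 in exactTest, and it stayed between -1.02 and -0.71 over the alternatives. Usp51 was under the filter, with 79 counts in non-CD24+CD90+ replicate 3, 8 in TIC replicate 2 and 0 in the other samples. Of the 5 cofactor genes of this module 0 were called by exactTest, 0 had an unadjusted p below 0.05 and 3 had a positive fold change. Over all genes these shares were 1.55%, 7.85% and 49.7%.

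Usp7 stabilizes Mdm2 and p53 and also acts on chromatin. Its levels of 174, 126 and 160 CPM in non-CD24+CD90+ cells were all above the 109, 118 and 119 CPM of TICs. The gap between the groups was small beside the spread of the non-CD24+CD90+ samples, and the log2 fold change was -0.41 (SE 0.31, adjusted p = 0.948 in exactTest).

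Usp38 lies on chromosome 8 at 80980733-81014928, minus strand. It had 155, 222 and 96 counts in non-CD24+CD90+ samples and 20, 3 and 26 counts in TIC samples. As normalized values these were 22.5, 25.1 and 13.7 CPM against 2.19, 0.348 and 3.42 CPM. The groups were well apart, and the sample with the lowest value was TIC replicate 2, at the limit of 3 counts. The log2 fold change was -3.36 (SE 1.12, 95% interval -5.55 to -1.16), with an adjusted p of 0.265 in exactTest and 0.0550 in DESeq2. Of its exon bases, 20.5% are shared with the antisense gene Gm9725 on the other strand, and the strand setting of the counting is not given in the sources used here, so that reads of the pair cannot be told apart there.

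Usp24 (chromosome 4, 106316213-106441322, plus strand), one of the longest members with 2618 codons, had levels of 158, 199 and 167 CPM in non-CD24+CD90+ cells and 122, 106 and 90.2 CPM in TICs. The groups did not overlap. The log2 fold change was -0.72 (SE 0.31, 95% interval -1.33 to -0.12) with an adjusted p of 0.425 in exactTest. Usp34, which acts on axin in Wnt signaling, had the opposite sign, with 365, 220 and 271 CPM in non-CD24+CD90+ cells and 265, 444 and 374 CPM in TICs. Its groups overlapped (log2 fold change 0.34, SE 0.32, adjusted p = 0.997). Of the exon bases of Usp34, 11.6% are shared with Ahsa2 on the other strand.

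Usp37 deubiquitinates cyclin A and is the one member of the cell cycle group. It was at 47.0, 33.9 and 26.5 CPM in non-CD24+CD90+ cells and at 19.2, 22.2 and 20.4 CPM in TICs. The TIC samples lay close together below the other group, and the log2 fold change was -0.80 (SE 0.60, adjusted p = 0.952 in exactTest).

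Usp30 sits in the outer mitochondrial membrane, where it opposes the ligase parkin. Its 51.2, 57.0 and 61.6 CPM in non-CD24+CD90+ cells were just above the 49.4, 48.7 and 42.1 CPM of TICs. The difference was small (log2 fold change -0.28, SE 0.42, adjusted p = 1), and 8.08% of its exon bases are shared with other genes, mainly Alkbh2 on the opposite strand. Usp19, anchored in the membrane of the endoplasmic reticulum, had 61.3 to 88.3 CPM and 61.8 to 113 CPM, with a log2 fold change of 0.24 (SE 0.38).

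The DNA repair and p53 group held Usp1, Usp10, Usp28, Usp45 and Usp47. None of the 5 was called, 3 had a positive fold change, and the median was 0.55. Usp1 removes ubiquitin from Fancd2 and from the replication clamp PCNA. It had 53.8, 19.7 and 45.3 CPM in non-CD24+CD90+ cells and 49.7, 92.7 and 138 CPM in TICs. TIC replicate 1 lay within the range of the other group, and the log2 fold change was 1.24 (SE 0.49, 95% interval 0.28 to 2.20) with an adjusted p of 0.347 in exactTest. Without TIC replicate 1 the log2 fold change was 1.56 and the adjusted p 0.0764, the only setting that called Usp1.

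Usp47, which deubiquitinates DNA polymerase beta in base excision repair, did not overlap between groups. It was at 55.1, 68.7 and 44.3 CPM in non-CD24+CD90+ cells and at 76.1, 70.1 and 100 CPM in TICs. The closest samples of the groups were almost level, and the log2 fold change was 0.55 (SE 0.39, adjusted p = 0.918 in exactTest). Usp10, which binds the stress granule protein G3bp1 and stabilizes p53, had 28.6, 14.4 and 17.4 CPM against 46.5, 18.3 and 36.0 CPM (log2 fold change 0.74, SE 0.65, adjusted p = 0.987), with overlapping groups.

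Usp28, a stabilizer of Myc, had the highest biological coefficient of variation of the group (1.05). It was at 9.01, 18.2 and 42.2 CPM in non-CD24+CD90+ cells and at 4.71, 0 and 11.4 CPM in TICs. TIC replicate 2 had no count, and the other TIC samples were near the lowest sample of the other group (log2 fold change -2.10, SE 1.24, adjusted p = 0.871). Usp25, the relative of Usp28 that acts in inflammatory signaling, had 47.0, 100 and 83.9 CPM and 98.8, 103 and 71.8 CPM in the same order, with overlapping groups (log2 fold change 0.25, SE 0.39).

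The endosome and membrane trafficking members are Usp2, Usp8, Usp20, Usp32 and Usp33. None was called, and 4 of the 5 had a positive fold change. Usp8 deubiquitinates growth factor receptors such as Egfr on endosomes. It had 200, 124 and 122 CPM in non-CD24+CD90+ cells and 94.0, 214 and 189 CPM in TICs. The groups overlapped, and the log2 fold change was 0.16 (SE 0.37, 95% interval -0.57 to 0.88). Usp20, which returns internalized adrenergic receptors to the cell surface, had 22.5, 9.27 and 2.99 CPM and 17.3, 17.4 and 42.6 CPM (log2 fold change 1.15, SE 0.89, adjusted p = 0.970). Its values overlapped because the first non-CD24+CD90+ sample exceeded TIC replicates 1 and 2.

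The remaining groups held no called member. The Wnt and TGF-beta signaling group (Usp4, Usp9x, Usp11, Usp15, Usp34) had 1 positive and 4 negative fold changes, with a median of -0.28. Usp12 and Usp46, which need the activator UAF1, had 0 positive fold changes. Usp46 was at 16.2 to 20.1 CPM and 9.31 to 23.4 CPM (log2 fold change -0.34, SE 0.85). Usp14, the deubiquitinase that rides on the proteasome and trims chains there, had 79.2 to 124 CPM and 44.8 to 99.4 CPM (log2 fold change -0.33, SE 0.39), and 26.0% of its exon bases are shared with Thoc1 on the other strand. Nucleolar Usp36, which acts on ribosome production, had 198 to 245 CPM and 109 to 278 CPM (log2 fold change -0.19, SE 0.35).

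Usp39 is a splicing factor of the protease fold that has lost its catalytic residues. The cysteine box that marks the active site was found in the coding sequence of 54 of the 55 members, and Usp39 was the exception. Usp53 and Usp54, listed with Usp39 as having catalytic residues lost or impaired, held the box, so that a match does not show activity. In Usp39 the box was searched for with aspartate in place of the cysteine, so that the aspartate codon was set by the search. The place that matches is printed for comparison with Usp16 above, with the codon at the position of the cysteine in capitals.
Usp39, chr6:72337708-72337737, minus strand: ataaaagccaacGACtatgcaaatgctgtg
Usp39 had 47.4, 52.1 and 56.9 CPM in non-CD24+CD90+ cells and 62.8, 38.8 and 11.8 CPM in TICs. The TIC samples ranged from above to far below the other group (log2 fold change -0.46, SE 0.57, adjusted p = 1).

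Levels of different members were compared per kilobase of the longest coding transcript. The mean over the 6 samples ran from 0.523 to 37.8 CPM per kilobase among the tested members, with a median of 8.78. Usp8 was highest with 35.8 ± 10.7 in non-CD24+CD90+ cells and 39.8 ± 15.2 in TICs, followed by Usp36 with 39.1 ± 4.14 and 34.3 ± 15.0, Usp7 with 32.3 ± 5.23 and 24.3 ± 1.23, Usp48 with 24.9 ± 6.90 and 30.2 ± 7.14, and Usp50 with 28.0 ± 5.96 and 25.5 ± 1.84 CPM per kilobase (SD, n = 3). Usp34 came next. Over all 6 samples, the ranges of these 6 genes overlapped with those of their neighbours, so that their order is uncertain, and it was not tested. Usp16, at 3.33 ± 3.14 CPM per kilobase in non-CD24+CD90+ cells, was in the lower part of the range there. In TICs it was at 18.7 ± 8.11 CPM per kilobase, a level like that of Usp25 (19.1 ± 3.58) or Usp19 (18.1 ± 5.33) in the same samples.

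**Figure D4:**
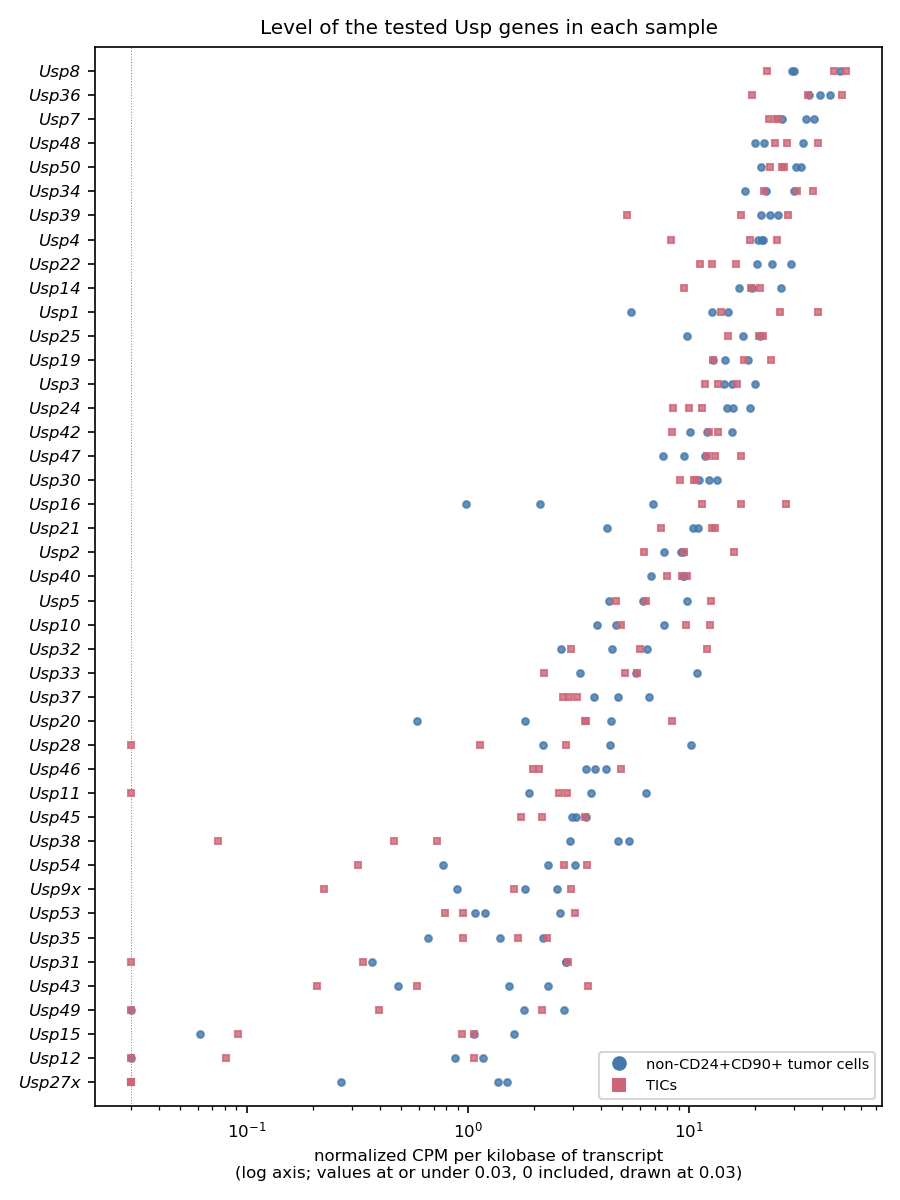
Normalized CPM per kilobase of transcript (x axis, log scale) of the 43 tested Usp genes in each of the 6 samples, ordered by their mean, with values at or below 0.03, including 0, drawn at 0.03. Usp8 and Usp36 lead, Usp12 and Usp27x are lowest, and the groups are interspersed for most genes, with Usp16 and Usp38 among the exceptions.

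Usp48 and Usp50 had no called difference. Usp48 was at 188, 126 and 115 CPM in non-CD24+CD90+ cells and 160, 220 and 141 CPM in TICs (log2 fold change 0.28, SE 0.33). Usp50 was at 41.6, 28.8 and 43.9 CPM and 36.5, 35.8 and 31.8 CPM (log2 fold change -0.13, SE 0.51). Both genes had overlapping groups, and 6.57% of the exon bases of Usp50 are shared with the pseudogene Gm10774.

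The median log2 fold change of the 43 tested members was -0.14, beside -0.01 over all genes. Setting Usp27x at its bound cannot move this median, because Usp27x stays the lowest member. A positive fold change was found in 17 members (39.5%), beside 49.7% of all genes. The median biological coefficient of variation was 0.503 in the members and 0.618 over all genes tested. A count of 0 in at least 1 sample was found in 6 tested members (14.0%, beside 20.2% of all genes).

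In total 12 members were not tested. No count in any sample was found for 7 of them, namely Usp17la, Usp17lb, Usp17lc, Usp17ld, Usp17le, Usp29 and Usp44. The Usp17-like genes are closely related copies on chromosome 7, and reads that fit several places were discarded before counting, so that their level is uncertain. Another 5 had counts but stayed under the filter. Usp13 had 28 counts in non-CD24+CD90+ replicate 3 and 56 in TIC replicate 1. The interferon-induced Usp18, which removes the ubiquitin-like protein Isg15, had 67 counts in non-CD24+CD90+ replicate 2, 60 in TIC replicate 1 and 5 in TIC replicate 2. Usp51 is described above, Usp26 had 3 counts in 1 sample, and Y-linked Usp9y had 0 to 4 counts per sample. Where no count was seen, the level was not detectable above 0.330 to 0.442 CPM per sample.

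Other parts of the ubiquitin system were read beside the family. Of 38 tested genes that belong to deubiquitinase families but are not named Usp, 0 were called by exactTest, by the quasi-likelihood test or by DESeq2. They were listed by family, as USP-fold genes with another name or as UCH, OTU, Josephin, JAMM, MINDY and ZUFSP genes. Whether each acts as a deubiquitinase was not checked, so that the counts are of family members. By exactTest 1.55% of all genes were called. An unadjusted p below 0.05 in exactTest was found for 1 of the 38, beside 7.85% of all genes. A positive log2 fold change was found for 13, beside 49.7% of all genes, and the median was -0.24. Groups did not overlap for 2 higher and 4 lower genes, beside 7.69% and 7.55% of all genes. The smallest p belonged to Otub1, an OTU family deubiquitinase, at 110, 67.8 and 98.3 CPM in non-CD24+CD90+ cells and 58.4, 36.6 and 38.6 CPM in TICs. Its groups did not overlap (log2 fold change -1.05, SE 0.41, adjusted p = 0.322 in exactTest). In the other direction the smallest p was that of Psmd14, the deubiquitinase of the proteasome lid, with a log2 fold change of 0.79 (SE 0.52, adjusted p = 0.892) and overlapping groups.

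Among 20 tested binding partners and opposing ligases of the family 0 were called by exactTest, beside 1.55% of all genes. An unadjusted p below 0.05 was found for 1, beside 7.85% of all genes. That gene was Ube2b, a conjugating enzyme for histone H2B, at 47.1, 60.0 and 49.2 CPM in non-CD24+CD90+ cells and 66.9, 92.3 and 117 CPM in TICs. Its groups did not overlap (log2 fold change 0.82, SE 0.39, adjusted p = 0.546 in exactTest). In the other direction the smallest p was that of G3bp2, with a log2 fold change of -0.89 (SE 0.52, adjusted p = 0.799). The 6 tested subunits of the Polycomb ligases that set the mark removed by Usp16 had 3 positive fold changes and a median of 0.08. Over all genes 49.7% were positive.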

How the data were processed

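RNA-seq was measured in 6 samples, 3 TIC and 3 non-CD24+CD90+, grouped by the submitters' descriptions. The authors deposited raw counts per Ensembl gene: reads were trimmed (Trimmomatic 0.32), aligned to GRCm38 (STAR 2.4.0), restricted to unique alignments (SAMtools 1.1) and counted with HTSeq, whose version, annotation and strand setting are not given in the sources used here. Counting unique alignments lowers genes with near-identical copies.

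Symbols were taken from GENCODE M21 for 40254 of 41388 gene identifiers, and the others held 0.171% of the counts. Genes exceeding 1 CPM in 3 or more samples were tested with exactTest of edgeR 4.0.16 (R 4.3.3) with Benjamini-Hochberg adjustment, as in the study's methods, and a threshold of 0.1. The TMM normalization and the size of the CPM filter were chosen here. SE and 95% intervals came from the negative binomial fit with tagwise dispersions. P-values measure the spread between pooled samples. Scripts were tested on simulated data.

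The members and lists were chosen with earlier results of these data known. Named genes were members called, the 5 with the smallest p in each direction, those without overlap, the 5 most abundant per kilobase, the paralog of a called member, the most abundant of each role group, undetected or filtered members, and the smallest p per direction of the other lists. Alternatives were DESeq2 1.42.0, the quasi-likelihood test, RLE factors, library size, other filters, a threshold of 0.05 and leaving out each sample. One listed gene is not reported here.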

Additional observations from a re-analysis of the deposited data

How the results depend on the processing

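The number of Usp genes called higher was 0 with the quasi-likelihood test, 0 without a filter on low counts and 0 at an adjusted p below 0.05, and it ranged from 0 to 2 when 1 sample was left out (2 without TIC replicate 1, Usp16 and Usp1). DESeq2 called 1 member lower, Usp38. Over all genes the calls numbered 306 with DESeq2, 50 with the quasi-likelihood test, 112 without a filter, 116 at an adjusted p below 0.05 and 72 to 323 with 1 sample left out. Members without overlap numbered 9 to 16 with 1 sample left out, where fewer samples make a gap likelier. With 1 sample left out, the log2 fold change of Usp8 ranged from -0.069 (without TIC replicate 2) to 0.45 and that of Usp36 from -0.54 to 0.11 (without TIC replicate 1), and the cause of these changes of sign was not tested. The other 22 named members kept their direction in every alternative that gave a value, the median over members stayed negative (-0.20 to -0.01), and 16 to 20 members were positive. Usp27x had no value with filterByExpr or without any single non-CD24+CD90+ sample, because it was then below the filter. No paired analysis was possible because the replicate numbers used here only name the samples, and no label links a TIC sample to a non-CD24+CD90+ sample. Depth sets the limit of 0.330 to 0.442 CPM that a count of 0 allows. A value of 1 or 2 counts, as Usp9y had in some samples, lies below that limit.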

Other observations

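Related members were also compared with each other within each sample, as log2 ratios of CPM after adding 0.5 CPM to both. The ratios were not tested, and no share over other gene pairs was computed to set them against. Beside Usp16 and Usp45, described above, the ratio of Usp47 to its relative Usp7 was -1.65, -0.87 and -1.84 in non-CD24+CD90+ cells and -0.51, -0.75 and -0.25 in TICs. The ratio of Usp25 to Usp28 was 2.32, 2.43 and 0.98 in non-CD24+CD90+ cells and 4.25, 7.70 and 2.60 in TICs, where the highest value belonged to the sample in which Usp28 had no count. Neither of these ratios overlapped between the groups, nor did those of Usp22 to Usp27x and of Usp40 to Usp47, and each of these pairs but Usp25 and Usp28 holds a gene whose own groups did not overlap.

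The windows of 250 bases before the start sites of the 33 tested members with an entry held a median of 24 CpG dinucleotides, beside 6 over all 27025 promoters. Usp16 had 12, Usp38 22, Usp27x 24 and Usp24 33. The set of all promoters includes genes that are silent in these cells, and a comparison among the genes tested here was not made.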
